A study of Homo sapiens with 18 samples.

Results

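The 128 protein-coding genes described here had at least double the control transcript level in MDA-MB-231 cells after knockdown of EZH2 and also after knockdown of E2F1. They were chosen on these measurements: the transcript level, in TPM (length-scaled transcript counts relative to the whole library), had to reach 3 in each of the 2 shEZH2 and 2 shE2F1 libraries, and the lowest of these 4 values had to be at least 2 times the higher of the 2 Control shRNA values. Of 9998 protein-coding genes at the TPM floor, 135 (1.35%) met the limit, and 7 of them (3 histone genes, 1 serpin gene and 3 others) were left out by the rule. Counted for each knockdown separately, 616 of the 9998 genes were doubled in both shEZH2 libraries and 435 in both shE2F1 libraries. Both knockdowns were measured against the same 2 control libraries, so a low control value favours both ratios at once.

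MDA-MB-231 is a triple-negative breast cancer line, one that lacks the oestrogen and progesterone receptors and HER2 amplification. EZH2 is the enzyme of the Polycomb complex PRC2. It adds methyl groups to histone H3 at lysine 27, a mark that keeps developmental genes silent. E2F1 is a transcription factor best known for switching on cell cycle and DNA replication genes, and it can also act in repression. GSK126 blocks the methyltransferase activity of EZH2 but leaves the protein in place, whereas a hairpin lowers the amount of transcript and so of protein. Protein was not measured in these data.

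The data were polyA-selected RNA-seq libraries of 5 groups with 2 distinct libraries each. Control shRNA, shEZH2 and shE2F1 cells had 24 h with lentivirus, then 72 h of selection in puromycin (2 µg/ml). Each hairpin was 1 sequence, so an effect of the target and of the hairpin itself cannot be told apart. DMSO and GSK126 cells carried no hairpin and were exposed to the solvent or to 1 µM GSK126 for 72 h. The summed expected counts per library ran from 13198932 to 20055550. EZH2 measured 90.8 and 102 TPM in Control shRNA and 31.9 and 26.5 TPM in shEZH2, and E2F1 measured 81.6 and 74.7 TPM in Control shRNA and 16.1 and 14.6 TPM in shE2F1. E2F1 was also lower in shEZH2, at 40.08 and 20.02 TPM (log2 change -1.59 ± 0.23 SE, adjusted p = 0.000172, edgeR). All 7 mesenchymal markers of the line were at 168.56 TPM or more in every library. Their sum was 8700 to 9170 TPM in Control shRNA, 5260 to 5380 TPM in shEZH2 and 6730 to 7040 TPM in shE2F1. AXL, a receptor tyrosine kinase on that list, measured 668 and 683 TPM in Control shRNA, 256 and 171 TPM in shEZH2, and 169.91 and 168.56 TPM in shE2F1. The part of these shifts in the results was not tested. Among luminal markers, ESR1 and FOXA1 stayed at or below 0.24 TPM and PGR was listed at 0. Of the 9 luminal breast markers, 6 reached 3 TPM, with KRT18 at 921.52 TPM or more and KRT8 at 1126 TPM or more throughout. Leukocyte markers summed to at most 2.45 TPM and endothelial markers to at most 4.37 TPM in any library. The fibroblast list summed to 10.5 to 12.7 TPM in Control shRNA, 28.8 to 39.2 TPM in shEZH2 and 13.5 to 14.1 TPM in shE2F1. COL1A1 measured 8.39 and 6.0 TPM in Control shRNA, 22.6 and 31.4 TPM in shEZH2, and 3.49 and 5.06 TPM in shE2F1. LUM measured 0.48 and 0.12 TPM in Control shRNA, 2.83 and 3.62 TPM in shEZH2, and 6.05 and 2.07 TPM in shE2F1. DCN, also on that list, was at 0 throughout. The part of the list in the results was not tested.

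The scale matters for the size of the set. In TPM, the median protein-coding gene at the floor stood at 1.14 times control in shEZH2 and 1.13 times control in shE2F1. After TMM scaling of the counts, which sets most genes to no change, these medians were 0.983 and 0.97. On that scale 73 of the 128 members still met the 2-fold limit, and LOX, KRTAP2-3, PLAT, DYNLRB1, GADD45A, DUSP1, JUNB, BIRC3 and TGFBR3 were among those that did not. Without Control shRNA replicate 1, 249 genes met the limits. The members' own median ratio of mean TPM was 3.32 in shEZH2 and 2.96 in shE2F1, against 2.86 and 2.54 after TMM scaling. Fitted to the counts of the 6 hairpin libraries, their median log2 change was 1.55 in shEZH2 and 1.29 in shE2F1, beside -0.02 and 0.00 for all 15373 genes fitted. The fitted change was below 1 for 11 members in shEZH2 and 16 in shE2F1. TPM also divides by the effective length of a gene in each library, which the fit to counts does not use. ADAMTS17 differed most between TPM and that fit, with a TPM ratio of 4.54 and a fitted log2 change of 0.80 ± 0.39 SE in shE2F1. Its expected counts were 17 and 39 in Control shRNA and 50 and 60 in shE2F1, and it still met the limit after TMM scaling. The part of effective length was not tested. These values restate the selection and carry no test. Since the libraries are bulk RNA, more RNA per cell and a larger share of cells that express a gene cannot be told apart.

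Most members sat close to the limit. The ratio of the lowest knockdown TPM to the higher control TPM had a median of 2.36, with quartiles of 2.14 and 2.68, and 25 members reached 3. Just inside were MFHAS1 at 2.00 (11.3 against 5.63 TPM), ATL1 at 2.00 (14.6 against 7.29 TPM) and GADD45A at 2.01 (185 against 92.2 TPM). Just outside were DNAJB2 and DYRK2, both at 1.996, and TUFT1 at 1.987. Member levels were mostly low to moderate, with a median of the mean control TPM of 5.69 and a median of the mean knockdown TPM of 20.9.

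The largest ratio, 19.9, belonged to DEFB103A (ENSG00000176797, hg38, chr8:7881392-7882663, plus strand), which encodes the antimicrobial peptide beta-defensin 3. It measured 1.97 and 0.55 TPM in Control shRNA, 61.8 and 59.2 TPM in shEZH2, and 45.9 and 39.3 TPM in shE2F1. The control values rested on 4 and 1 expected counts and the knockdown values on 75 or more. A near-identical copy, DEFB103B, stayed at or below 1.3 TPM in the same libraries, and how the reads were divided between the copies is uncertain: the posterior SD of the DEFB103A count reached 68.8% of the count in one library, but at most 3.02% in the knockdown libraries.

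RRAD, a small RGK-family GTPase that inhibits voltage-gated calcium channels and glucose uptake, was at 10.1 and 8.33 TPM in Control shRNA, 182 and 253 TPM in shEZH2, and 55.9 and 65.4 TPM in shE2F1. TMEM40, a transmembrane protein of epithelia, was at 0.51 and 1.06 TPM in Control shRNA, 8.60 and 8.03 TPM in shEZH2, and 5.54 and 8.18 TPM in shE2F1. PTPRR, a receptor-type phosphatase that inactivates ERK kinases, was at 1.43 and 1.17 TPM in Control shRNA, 7.26 and 6.07 TPM in shEZH2, and 11.9 and 9.01 TPM in shE2F1. TMEM40 and PTPRR were low in control cells, and the TMEM40 control values rested on 5 and 12 expected counts. Of these 3 genes, RRAD had the widest gap between the hairpins.

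CLU, the secreted chaperone clusterin, was at 24.96 and 21.87 TPM in Control shRNA, 103 and 136 TPM in shEZH2, and 115 and 140 TPM in shE2F1. CACFD1, a little-described membrane protein with a calcium channel flower domain, was at 4.10 and 2.94 TPM in Control shRNA, 26.3 and 31.1 TPM in shEZH2, and 16.6 and 16.4 TPM in shE2F1. KRT15, a type I keratin of basal epithelial cells, was at 6.11 and 5.49 TPM in Control shRNA, 24.8 and 28.6 TPM in shEZH2, and 24.0 and 26.2 TPM in shE2F1. CLU and KRT15 thus reached overlapping levels under the 2 hairpins, while CACFD1 was higher under shEZH2.

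TRAF1, an adaptor of TNF receptors and an NF-κB target, was at 4.98 and 5.20 TPM in Control shRNA, 24.7 and 24.9 TPM in shEZH2, and 20.4 and 22.2 TPM in shE2F1. RRAGD, a Rag GTPase that brings mTORC1 to the lysosome, was at 0.83 and 1.39 TPM in Control shRNA, 6.05 and 5.45 TPM in shEZH2, and 5.48 and 5.43 TPM in shE2F1. KRT34, a type I hair keratin, was at 2.19 and 1.95 TPM in Control shRNA, 8.73 and 8.65 TPM in shEZH2, and 8.24 and 10.2 TPM in shE2F1. All 3 had knockdown libraries within a narrow range. Among the 12 largest ratios, 2 are uncertain gene models. Control values rested on 10 and 7 expected counts for CEP295NL and on 3 and 5 for ENSG00000288258. CEP295NL, which lies within TIMP2 on the same strand, was at 0.74 and 0.34 TPM in Control shRNA, 5.63 and 5.42 TPM in shEZH2, and 3.47 and 3.33 TPM in shE2F1. ENSG00000288258, a model over CMC4 and MTCP1, was at 0.88 and 1.27 TPM in Control shRNA, 8.08 and 7.73 TPM in shEZH2, and 11.56 and 13.48 TPM in shE2F1, with a posterior SD of up to 26.5% of the count in those knockdown libraries.

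**Figure D1:**
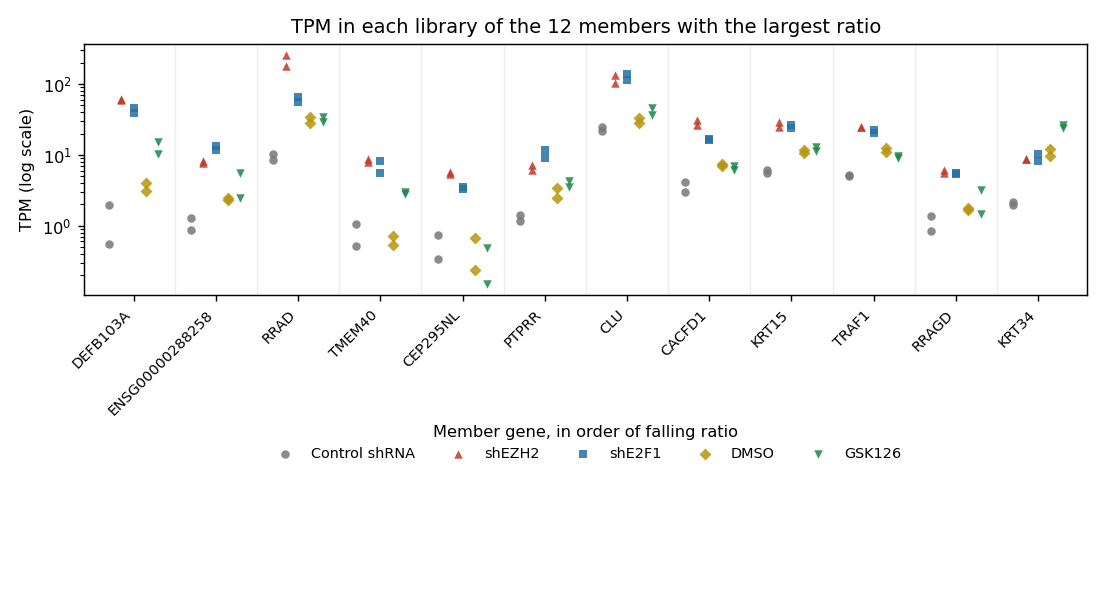
TPM on a log axis in each of the 10 libraries for the 12 members with the largest ratio of lowest knockdown to higher control value; each point is 1 library. The shEZH2 and shE2F1 points of every gene lie above both control points by construction, and KRT34 is the gene whose DMSO points, at 9.74 and 11.9 TPM, reach its knockdown points.

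Of the 8 members with the highest mean knockdown level, the first was KRTAP2-3, a hair keratin-associated protein, at 9.92 and 21.4 TPM in Control shRNA, 837 and 1030 TPM in shEZH2, and 43.1 and 60.7 TPM in shE2F1. PLAT, the tissue plasminogen activator, was at 144 and 128 TPM in Control shRNA, 309 and 396 TPM in shEZH2, and 314 and 395 TPM in shE2F1. The 2 hairpins gave almost the same PLAT values, whereas KRTAP2-3 was far higher in shEZH2. Its near-identical relative KRTAP2-4 stayed at or below 1.14 TPM. DYNLRB1, a light chain of cytoplasmic dynein, was at 113 and 91.4 TPM in Control shRNA, 296 and 270 TPM in shEZH2, and 254 and 241 TPM in shE2F1. KLHDC3, a substrate receptor of a ubiquitin ligase, was at 72.6 and 68.0 TPM in Control shRNA, 189 and 203 TPM in shEZH2, and 208 and 237 TPM in shE2F1. GADD45A, a stress sensor of growth arrest and DNA damage, was at 92.2 and 85.1 TPM in Control shRNA, 194 and 185 TPM in shEZH2, and 224 and 226 TPM in shE2F1. The ratios of these 3 genes to control were between 2.1 and 3.2 in mean TPM.

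AREG, an EGF receptor ligand, was at 70.0 and 56.0 TPM in Control shRNA, 196 and 201 TPM in shEZH2, and 174 and 199 TPM in shE2F1. HSD17B10, a mitochondrial dehydrogenase, was at 33.9 and 37.4 TPM in Control shRNA, 190 and 233 TPM in shEZH2, and 134 and 151 TPM in shE2F1. DUSP5, a nuclear phosphatase of ERK, was at 49.1 and 45.5 TPM in Control shRNA, 188 and 212 TPM in shEZH2, and 125 and 134 TPM in shE2F1. HSD17B10 and DUSP5 were higher in both shEZH2 libraries than in either shE2F1 library, and AREG overlapped.

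Promoter sequences were read for what the selection did not use. RefSeq promoter windows (GRCh38.p14, 250 bases before to 50 after the gene start) were at hand for 94 members and for 8276 of the 9998 genes. The letters TATAAA, the core of the TATA box, were found on either strand in 10 member windows (10.6%) and in 4.9% of all windows. On the sense strand and with its first base 38 to 20 bases before the start, where a working TATA box lies, the motif was in 5 member promoters (5.32%) and in 118 of all (1.43%). The 60 bases before the start of these 5 genes are shown because they include a keratin, a keratin-associated protein, a growth factor and a pair of stress-response genes with a large place in the results. Capitals mark TATAAA, and all read 5′ to 3′ on the gene's strand.
AREG, chr4:74445076-74445135, plus strand: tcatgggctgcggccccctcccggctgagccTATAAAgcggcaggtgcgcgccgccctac
DUSP1, chr5:172771196-172771255, minus strand: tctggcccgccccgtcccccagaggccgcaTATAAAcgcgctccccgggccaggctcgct
JUNB, chr19:12791426-12791485, plus strand: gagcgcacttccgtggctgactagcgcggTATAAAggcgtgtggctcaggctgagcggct
KRT34, chr17:41382307-41382366, minus strand: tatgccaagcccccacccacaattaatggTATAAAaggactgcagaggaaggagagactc
KRTAP2-3, chr17:41060115-41060174, minus strand: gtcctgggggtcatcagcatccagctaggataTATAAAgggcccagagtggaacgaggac

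Other motifs were searched on both strands of the same windows. The E2F form TTTGGCG was in 1 member promoter, that of RASD1 (1.1%), against 3.2% of all, and the form TTTCGCG was in 0 of 94 against 2.5% of all. CCAAT was in 29.8% of member promoters and 37.3% of all, the cell cycle element TTTGAA in 5.3% and 8.9%, and the AP-1 motif TGANTCA in 2.1% and 4.0%. CATTCC, bound by TEAD factors, was in 11.7% and 10.8%, CACGTGA, the lysosomal gene element, in 4.3% and 6.3%, and GGGCGG, the Sp1 box, in 76.6% and 72.8%. A missing motif says only that the letters were not in these windows. Promoter GC content had a median of 66.8% in members and 65.7% in all genes, transcript GC content 47.0% and 47.5%, and the longest transcript 4262 and 3904 bases.

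Several members are neighbours. KRTAP2-3, KRT34 and KRT15 lie within the type I keratin cluster of chromosome 17, all on the minus strand, with no other gene at the TPM floor between them. PTPRB and PTPRR, a pair of receptor-type phosphatases, lie 633 bases apart on the minus strand of chromosome 12, and PTPRB measured 3.19 and 3.73 TPM in Control shRNA, 13.6 and 14.5 TPM in shEZH2, and 9.88 and 10.3 TPM in shE2F1. MAP3K7CL and BACH1 lie 18182 bases apart on chromosome 21.

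By function, grouped after the values were known, 15 members belong to inflammatory and cell death signalling, with median ratios to control of 3.66 in shEZH2 and 2.75 in shE2F1. TNFAIP3, the deubiquitinase A20 that shuts off NF-κB, was at 5.53 and 3.80 TPM in Control shRNA, 22.2 and 15.5 TPM in shEZH2, and 16.19 and 13.03 TPM in shE2F1. BIRC3, an NF-κB-induced inhibitor of apoptosis, was at 19.2 and 23.7 TPM in Control shRNA, 48.09 and 50.04 TPM in shEZH2, and 101 and 109 TPM in shE2F1, so it was higher under the E2F1 hairpin. CFLAR blocks caspase-8, CASP4 is the inflammatory caspase that senses lipopolysaccharide, TLR2 recognises bacterial lipoproteins, PELI1 is a ubiquitin ligase of Toll-like signalling, and BIK is a BH3-only death protein. ITGB2, the beta-2 integrin chain usually found on leukocytes, was at 3.57 and 3.54 TPM in Control shRNA, 11.5 and 16.2 TPM in shEZH2, and 35.6 and 36.5 TPM in shE2F1, in libraries where the leukocyte marker CD3E was at 0 and PTPRC was at or below 0.46 TPM.

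The 18 members of immediate early, stress and kinase signalling had median ratios of 3.75 and 3.19. ATF3, a transcription factor of the stress response, was at 4.49 and 6.66 TPM in Control shRNA, 44.7 and 50.2 TPM in shEZH2, and 20.04 and 26.47 TPM in shE2F1. DUSP1, a phosphatase of p38 and JNK, was at 23.0 and 30.4 TPM in Control shRNA, 76.9 and 97.1 TPM in shEZH2, and 66.8 and 102 TPM in shE2F1, and JUNB, an AP-1 subunit, was at 23.2 and 16.7 TPM in Control shRNA, 47.2 and 61.2 TPM in shEZH2, and 56.5 and 51.8 TPM in shE2F1. Both overlapped between the hairpins, and both carry the TATA box shown above. TRIB1 is a pseudokinase of the COP1 ubiquitin ligase, RASD1 a Ras-like GTPase, CBLB a ubiquitin ligase of receptor signalling, TNIK a kinase of the Wnt pathway and BACH1 a heme-responsive repressor.

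Secreted proteins, receptors and morphogen signalling made up 16 members, with median ratios of 3.65 and 2.94, and 10 of them were higher in both shEZH2 libraries than in either shE2F1 library, as were 41.5% of the 9998 genes. LOX, the enzyme that crosslinks collagen, was at 7.02 and 5.06 TPM in Control shRNA, 123 and 144 TPM in shEZH2, and 16.5 and 15.1 TPM in shE2F1. Others were AXIN2, a negative regulator and target of beta-catenin, DKK3 of the Dickkopf family, CELSR3, a planar cell polarity cadherin, and HHIP, which binds and restrains hedgehog ligands. HHIP was at 2.92 and 3.72 TPM in Control shRNA, 11.5 and 9.19 TPM in shEZH2, and 10.2 and 10.6 TPM in shE2F1. IGFBP3 binds insulin-like growth factors, METRNL is a secreted factor, TGFBR3 is the TGF-beta co-receptor betaglycan, and PRLR is the prolactin receptor. ADAMTS9 and ADAMTS17 are metalloproteases of the ADAMTS family.

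Membrane traffic, lysosome and nutrient sensing was the largest class, with 23 members and median ratios of 3.06 and 2.60. It held the cathepsin CTSS, a proton pump subunit (ATP6V0A4), the autophagy factor ATG14, the SNARE protein STX3, the SNARE attachment protein NAPB, the Rab GTPases RAB22A and RAB30, the TSC complex subunit TBC1D7, and the oxysterol-binding relatives OSBPL6 and OSBP2. In 13 of the 23, both shEZH2 libraries were above both shE2F1 libraries, beside 41.5% of the 9998 genes. Keratins and epithelial proteins made up 10 members, metabolic enzymes and transporters 13 (median ratios 2.81 and 2.66), and nuclear regulators and RNA-binding proteins 14 (2.96 and 2.87). The last included ARID5A and ARID5B, the chromatin organiser SATB1, the thyroid hormone receptor THRB, the coactivator NCOA3, the repair ATPase ERCC6 and 3 zinc finger genes. The other 19 members have other or little-described functions, among them FBXO32, the ubiquitin ligase atrogin-1, at 11.1 and 8.12 TPM in Control shRNA, 58.6 and 64.6 TPM in shEZH2, and 35.2 and 37.0 TPM in shE2F1.

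Between the hairpins, both shEZH2 values were above both shE2F1 values for 59 members and below them for 27, and the libraries overlapped for 42. Over the 9998 genes these shares were 41.5% and 40.8%. Mean levels differed more than 3-fold for 4 members without overlap. Of these, 3 were higher in shEZH2, by 17.99 times for KRTAP2-3, 8.44 times for LOX and 3.59 times for RRAD. SUN3, a nuclear envelope protein of the germ line, was at 0.64 and 1.87 TPM in Control shRNA, 6.30 and 7.08 TPM in shEZH2, and 22.1 and 25.2 TPM in shE2F1, which was 3.53 times higher in shE2F1. The SUN3 control values rested on 5 and 12 expected counts. As the rule used all of these libraries, the values are a description and carry no test. The share of all genes that differed more than 3-fold without overlap was not computed.

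**Figure D2:**
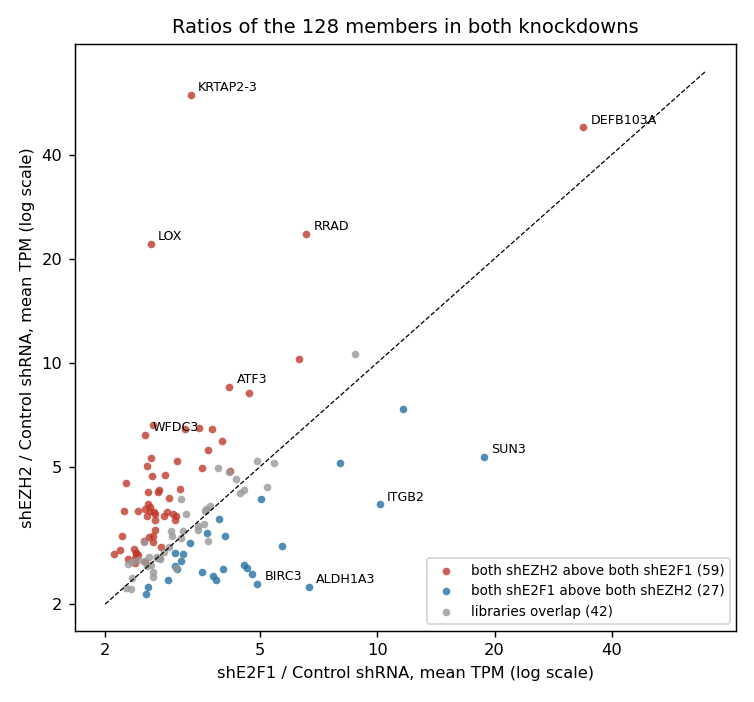
Ratio of mean TPM to Control shRNA in shEZH2 (vertical, log axis) against shE2F1 (horizontal, log axis) for the 128 members; the dashed line marks equal ratios and colour marks which pair of libraries was higher without overlap. KRTAP2-3 and LOX lie far above the line, at 59.7 and 22.1 in shEZH2 against 3.32 and 2.62 in shE2F1, and SUN3 lies far below it.

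Cells that carried no hairpin give another reference. Both DMSO values were above both Control shRNA values for 84 of the 128 members, below them for 10, and overlapping for 34, while 25.7% of the 9998 genes had both DMSO values above. The share of all genes with both DMSO values below was not computed. The median ratio of mean DMSO to mean Control shRNA TPM was 1.35 for members (quartiles 1.11 and 1.85) and 1.01 for all (0.891 and 1.16). This ratio was 0.991 at percentile 17 of members and 0.997 at percentile 48 of all. Members were chosen for low Control shRNA values, so this contrast is not independent of the rule, and DMSO cells also differed from control-hairpin cells by solvent, virus and puromycin. For 114 members both DMSO values stayed under the lowest knockdown value, and for 46 the lowest knockdown value was also at least 2 times the higher DMSO value. Members were chosen for a high lowest knockdown value, so counts against it, here and below, follow in part from the rule. The matching shares of all genes were not computed.

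For 7 members both DMSO libraries were at or above the lowest knockdown value: KRT34, ATF3, AREG, GFPT2, CBLB, DYNLRB1 and WFDC3. DYNLRB1 measured 354 and 308 TPM in DMSO and was the only member with both DMSO values above all 4 knockdown values. AREG was at 224 and 175 TPM in DMSO, 3.17 times control, and ATF3 at 22.8 and 23.2 TPM, 4.13 times control. At the other end, ITGB2 was at 2.35 and 1.40 TPM in DMSO, or 0.527 times control, and TMEM40 at 0.53 and 0.72 TPM, or 0.796 times control.

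**Figure D3:**
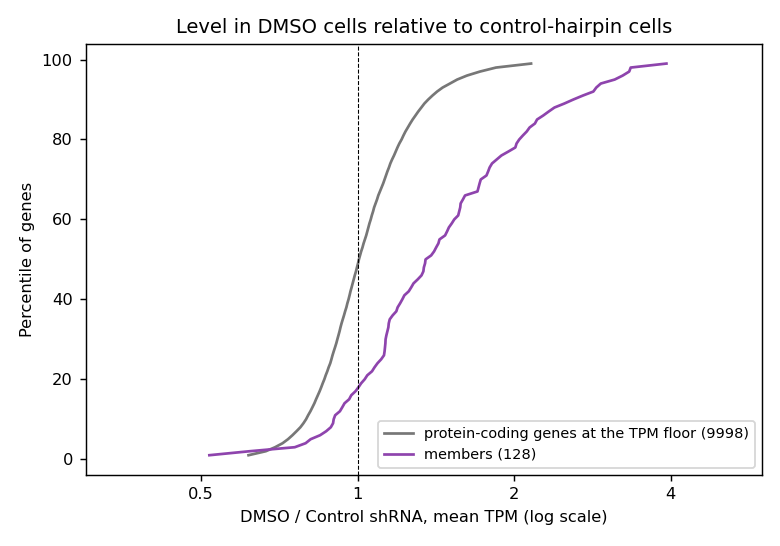
Percentile curves of the ratio of mean DMSO to mean Control shRNA TPM (log axis) for the 128 members and for the 9998 protein-coding genes at the TPM floor. The member curve lies to the right of the other over most of its length, with medians of 1.35 and 1.01.

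GSK126 offers the test that is independent of the selection, because none of its 4 libraries chose the members. With edgeR's quasi-likelihood test, called at an adjusted p under 0.01 and more than 2-fold, 0 of the 126 members that passed the filter on low counts were called, as were 0 of all 14632 genes tested (0.0%). At an unadjusted p under 0.05, 577 genes were counted. Of the members, 16 had such a p with a higher value and 1 with a lower value, against 3.12% and 0.82% of all genes. The smallest member adjusted p was 0.646, so no single member passed.

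The members' log2 changes under GSK126 had a median of 0.14 (quartiles -0.07 and 0.31), beside a median of -0.01 (quartiles -0.10 and 0.11) for all genes tested. Without GSK126 replicate 1 the members' median was 0.071. Values were above 0 for 87 members (69.0%) and for 48.4% of all genes. Both GSK126 values were above both DMSO values for 38 of the 128 members (29.7%) and below them for 9 (7.03%), against 15.7% and 10.6% of the 9998 genes. The median ratio of GSK126 to DMSO was 1.12 for replicate 1 and 1.09 for replicate 2, where all genes had 1.01 and 1.00. In both replicates the ratio was above 1 for 68 members (53.1%, against 33.3% of all), below 1 for 20, and split for 40.

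DMSO and GSK126 libraries with the same replicate number deviated together (r = 0.663 over 11919 genes, as a description), though the labels do not say what the number stands for. With the replicate number as a block, the same test called 68 genes and 2 members, KRT34 and HHIP. At an adjusted p under 0.05 alone, that fit gave 31 members with higher and 8 with lower values, against 6.3% and 7.3% of all genes, or 31.0% of the members tested in either direction. It had 1 residual degree of freedom. DESeq2 without the block called 10 genes, of which 1, KRT34, was a member.

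KRT34 had the smallest unadjusted p of the members. It measured 9.74 and 11.9 TPM in DMSO and 26.0 and 23.6 TPM in GSK126, and the groups did not overlap (log2 change 1.17 ± 0.17 SE, edgeR adjusted p = 0.646). HHIP measured 4.79 and 3.52 TPM in DMSO and 10.6 and 7.81 TPM in GSK126, again without overlap (1.18 ± 0.22 SE, edgeR adjusted p = 0.749). PLAT measured 225 and 237 TPM in DMSO and 341 and 317 TPM in GSK126 (0.48 ± 0.11 SE, edgeR adjusted p = 0.929). DEFB103A measured 3.95 and 3.05 TPM in DMSO and 10.2 and 15.4 TPM in GSK126 (1.92 ± 0.53 SE, edgeR adjusted p = 1.0), on 7 and 6 expected counts in DMSO and 15 and 30 in GSK126. All 4 were higher in both GSK126 libraries. For KRT34 the drug values exceeded those of both knockdowns, but its mean DMSO TPM was already 5.227 times Control shRNA. Relative to DMSO, mean KRT34 TPM was 2.293 times as high under GSK126. Relative to Control shRNA, it was 4.198 times as high in shEZH2 and 4.444 times in shE2F1.

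The members ZNF738, TRAF1, WFDC3 and SNX15 had lower values and the smallest p in that direction. TRAF1 measured 11.1 and 12.5 TPM in DMSO and 9.74 and 9.06 TPM in GSK126 (-0.35 ± 0.14 SE), WFDC3, a protease inhibitor domain protein, 7.23 and 5.48 against 3.37 and 4.25 TPM (-0.66 ± 0.37 SE), and SNX15, a sorting nexin, 39.5 and 38.5 against 35.9 and 33.2 TPM (-0.19 ± 0.12 SE). ZNF738, a zinc finger gene, measured 7.16 and 4.07 TPM in DMSO and 4.79 and 4.08 TPM in GSK126 (-0.41 ± 0.23 SE). The groups overlapped for ZNF738 but not for the other 3, and all 4 had an edgeR adjusted p of 1.0.

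The members most separated between the hairpins had these values under the drug. RRAD measured 28.0 and 34.1 TPM in DMSO and 29.0 and 34.5 TPM in GSK126 (log2 change 0.01 ± 0.20 SE). LOX measured 13.23 and 13.04 TPM in DMSO and 18.07 and 17.34 TPM in GSK126 (0.42 ± 0.12 SE), a ratio of 1.37 and 1.33 in the libraries numbered 1 and 2. KRTAP2-3 measured 12.7 and 23.2 TPM in DMSO and 17.57 and 40.01 TPM in GSK126, where the groups overlapped although each replicate was higher. SUN3 measured 2.23 and 4.35 TPM in DMSO and 4.28 and 3.18 TPM in GSK126, with the replicates going opposite ways. All 4 stayed below their shEZH2 levels in both GSK126 libraries.

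By class, the median log2 change under GSK126 was highest for secreted proteins, receptors and morphogen signalling, at 0.34, with 13 of 16 members above 0 and 9 of 16 with both drug libraries above both DMSO libraries (15.7% of the 9998 genes). It was 0.18 for immediate early, stress and kinase signalling (15 of 18 above 0), 0.16 for inflammatory and cell death signalling (11 of 15) and 0.16 for keratins and epithelial proteins (9 of 10). For metabolic enzymes and transporters it was 0.00 and for nuclear regulators 0.05. The classes were drawn after the values were known and the differences between them were not tested. Both GSK126 values reached the lowest knockdown value for 10 members, among them KRT34, AREG, DUSP1, LOX and PLAT. Both DMSO values already did so for 7 members, KRT34 and AREG among them. The lowest knockdown value can come from either hairpin. For LOX it came from shE2F1, and both GSK126 values stayed under both shEZH2 values. The share of all genes that reached this value was not computed, so these counts are a description.

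**Figure D4:**
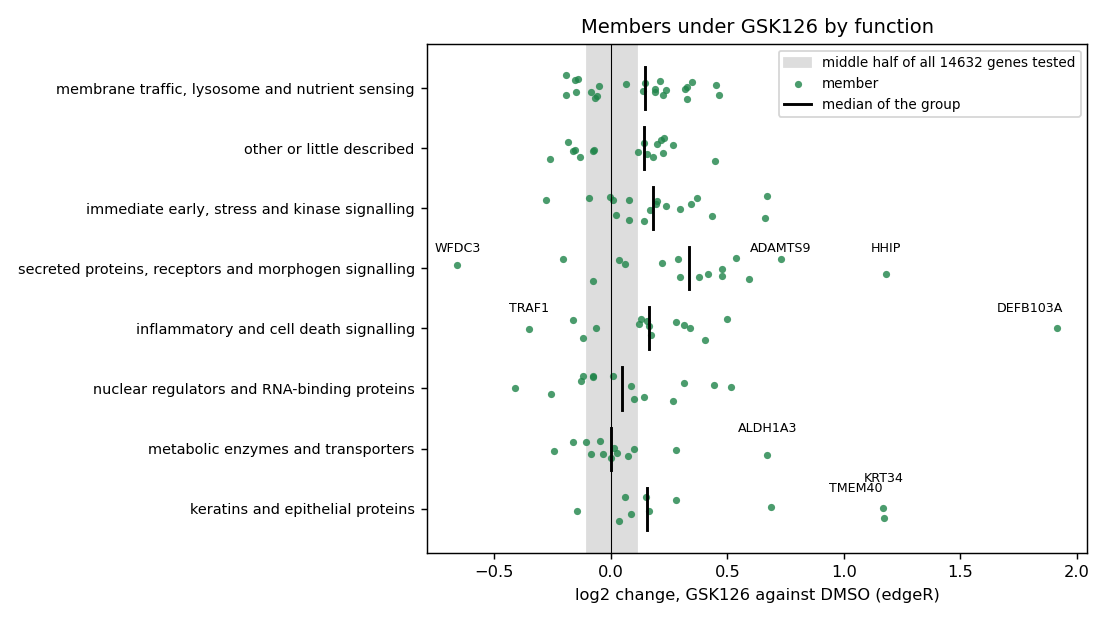
Fitted log2 change under GSK126 against DMSO for the 126 members tested, by function; points are genes, black bars are class medians, and the grey band runs between the quartiles of all 14632 genes tested (-0.10 to 0.11). The class of secreted proteins has its median at 0.34, to the right of the band, and DEFB103A, KRT34, TMEM40 and HHIP lie beyond 1.

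Other genes of related pathways, from 14 lists, were tested between each hairpin and control with the members removed. Of 245 such genes fitted, 32 were higher and 42 lower in shEZH2, and 41 were higher and 22 lower in shE2F1, at an adjusted p under 0.01 and more than 2-fold (edgeR). Over all genes fitted, 7.52% were higher and 10.7% lower in shEZH2, and 5.6% higher and 5.96% lower in shE2F1. In the immediate early list, which holds 4 members, 3 of 22 other genes rose and 2 fell in each knockdown: JUND, an AP-1 subunit, rose in shEZH2 (1.16 ± 0.21 SE), KLF4 rose in shE2F1 (1.20 ± 0.12 SE), and FOSL2 fell in both (-1.02 and -1.03). In the growth factor and cytokine list, home of AREG, 6 of 29 rose and 2 fell in shEZH2, and 7 rose and 2 fell in shE2F1. PDGFB, a platelet-derived growth factor, rose in both (1.74 ± 0.18 and 1.16 ± 0.19 SE), and IL11, an IL-6 family cytokine, fell in both (-3.09 ± 0.11 and -3.69 ± 0.11 SE).

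The squamous keratinocyte list, home of KRT15, had 0 of 9 others higher and 1 lower in shEZH2, against 6 higher and 1 lower in shE2F1. KRT17, a stress keratin, rose in shE2F1 (4.06 ± 0.27 SE) and measured -1.05 ± 0.43 SE in shEZH2. In coagulation and complement, home of PLAT, 1 of 15 rose and 5 fell in shEZH2, and 5 rose and 4 fell in shE2F1, where the urokinase gene PLAU fell by 2.99 on the log2 scale. Lysosome and autophagy, home of CTSS, had 1 of 24 higher and 4 lower in shEZH2, and 1 higher and 0 lower in shE2F1. The RGK GTPase and RGS list, home of RRAD, had 2 of 12 higher and 1 lower in shEZH2 and 0 called in shE2F1.

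Of the lists without members, interferon-stimulated genes had 0 of 24 higher and 11 lower in shEZH2 against 8 higher and 1 lower in shE2F1, and metallothioneins 4 of 5 higher in shEZH2 against 0 higher and 1 lower in shE2F1. Epithelial junction genes had 3 of 25 higher and 3 lower in shEZH2, and 2 and 2 in shE2F1. CDH1 and ST14 were higher in both, at 4.61 TPM or less in every library, and ESRP2 was lower in both (-1.82 and -1.60). Matrix glycoproteins had 7 of 20 higher and 3 lower in shEZH2, and 4 and 6 in shE2F1. The p53 targets had 2 of 23 higher and 3 lower, then 3 and 0. Lipid handling genes had 1 of 13 higher and 6 lower, then 0 and 1. Amino acid and glucose transporters had 1 of 17 higher and 1 lower, then 1 and 2, and neuronal adhesion genes had 1 of 7 higher in each knockdown and 0 lower. Under GSK126, 0 of 234 list genes were called in either direction.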

How the data were processed

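The 10 distinct RNA-seq libraries of MDA-MB-231 cells were analysed. The 18 sample records held 8 byte-identical repeats, each used once. The authors aligned reads to hg38 and quantified genes with RSEM (1.3.1, with STAR 2.7.2b, in the submitters' processing notes), and deposited expected counts, TPM, effective lengths and the posterior SD of each count, a score of how firmly reads were assigned. Whether counting used strand is not given in the sources used here, so overlapping genes are uncertain (among members named in the report, CEP295NL, ENSG00000288258, DYNLRB1, SNX15, AXIN2 and SATB1 overlap a gene on the same strand, and ATG14, ATL1, ATP6V0A4, BACH1, DKK3, HHIP, JUNB, KLHDC3, LOX, NCOA3, STX3 and TBC1D7 one on the opposite strand).

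Members were found on the deposited TPM by the rule given in the report, with gene types and coordinates from GENCODE 44 (99.9% of 62703 gene IDs matched). Expected counts were rounded to whole numbers and fitted with edgeR 4.0.16 (filterByExpr, TMM, quasi-likelihood test, Benjamini-Hochberg over all genes tested), the 6 hairpin and 4 drug libraries apart. Each SE given is the absolute log2 change divided by the square root of the edgeR F statistic, not a fitted standard error. DESeq2 1.42.0, other filters, scalings and left-out libraries were alternatives. The scripts were tested on simulated data. Members carry no test in the hairpin contrasts, which chose them. Each group had 2 libraries, and nothing says that they came from separate cultures, so p-values measure the spread between these libraries. Summed expected counts of 13198932 to 20055550 per library limit low genes, and expected counts cover counting error only.

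The members and gene lists were chosen with earlier results of these data known. Values in all libraries are given for the 12 largest ratios, the 8 highest members, the 4 smallest unadjusted p per direction under GSK126, genes nearest the limit, and members differing over 3-fold between hairpins without overlap. List genes were named among called genes with the largest changes. Other members shown were chosen after their values were seen. Same-numbered libraries were compared by the correlation of replicate differences, which was 0.663 between DMSO and GSK126 and between -0.0814 and 0.205 for the other pairs of groups.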

Additional observations from a re-analysis of the deposited data

How the results depend on the processing

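With 2 libraries a group, calls rest on few degrees of freedom. DESeq2 called 1 member and 10 genes under GSK126, and the replicate block called 2 members and 68 genes, where the main test called 0 and 0. Leaving out each drug library in turn called 1 to 2 members (KRT34, HHIP or KRTAP2-3) and 37 to 43 genes, with the lone library assumed to vary like the other group; the median member change ran from 0.071 (without GSK126 replicate 1) to 0.198, against 0.142. The median stayed positive under all 10 alternatives. KRT34 (1.17) and HHIP (1.18) were past the threshold under the replicate block at 1.18 and 1.18, and KRT34 under DESeq2 at 1.16. The 8 members named for the drug kept their sign in every setting that fitted them.

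The number of members depended on the limits: 482 at 1.5 times, 25 at 3 times, 85 with a pseudocount of 1 TPM, and 73 with TMM-scaled CPM per kb. Leaving out each hairpin library gave 147 to 249, the highest without Control_shRNA replicate 1. Correction for GC content and length kept 128 genes, of which 105 were members (HHIP, BIRC3 and KRTAP2-3 were not kept). The median shE2F1 change, 1.286, became 1.305 without a filter, 1.325 with a mean of 50 counts, and 1.255 to 1.336 without single libraries; the median shEZH2 change stayed between 1.485 and 1.59 in all settings. At an adjusted p under 0.05 with no fold limit, 166 list genes were called in shEZH2 in place of 74 and 150 in shE2F1 in place of 63. Genes at an unadjusted p under 0.05 under GSK126 numbered 577 in the main test, 3720 with the replicate block and 285 with DESeq2. The replicate block changed neither hairpin list count nor any of the 3 member medians by over 1.5 times. The median DMSO to control ratio, 1.35, ran from 1.3 to 1.434 without single libraries. The causes were not tested.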

Other observations

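Among annotated genes of other types, 22 met the same TPM and ratio limits. LINC01943, a long noncoding RNA, measured 6.36 and 0.31 TPM in Control shRNA, 55.2 and 77.1 TPM in shEZH2, and 27.3 and 24.9 TPM in shE2F1. In the drug experiment it measured 1.89 and 5.78 TPM in DMSO and 33.4 and 11.2 TPM in GSK126, without overlap, although its 2 control libraries differed widely and its log2 change fitted to the counts was 0.69 ± 0.45 SE. HRAT17, another long noncoding RNA, measured 0 and 0.2 TPM in Control shRNA, 4.21 and 5.20 TPM in shEZH2, and 3.94 and 3.98 TPM in shE2F1, and it stayed at or below 0.53 TPM in the 4 drug libraries. SFTA1P measured 33.3 and 34.8 TPM in Control shRNA, 91.7 and 114 TPM in shEZH2, and 151 and 177 TPM in shE2F1. THBS1-IT1, annotated within THBS1, measured 2.46 and 2.15 TPM in Control shRNA, 12.1 and 8.28 TPM in shEZH2, and 7.84 and 7.72 TPM in shE2F1. It measured 6.07 and 8.66 TPM in DMSO and 12.8 and 12.8 TPM in GSK126. These genes were named after their values were seen, and their values carry no test.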
